A study of Homo sapiens with 12 samples.

Results

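The protein part of the cytosolic ribosome was followed at the mRNA level in MOLM-13, a human AML cell line, established and widely used, with FLT3-ITD, a form of the receptor kinase FLT3 that is always active. Members were all rows of the gene table whose symbol is that of a ribosomal protein of the large (RPL, RPLP) or small (RPS, RPSA) subunit, without pseudogenes and without the RPS6 kinases. The rule found 85 of 57353 gene names. Of these, 77 were core genes (46 of the large and 31 of the small subunit) and 8 were paralogs: RPL3L, RPL7L1, RPL10L, RPL22L1, RPL26L1, RPL36AL, RPL39L and RPS27L. The 12 libraries formed 4 groups of 3 replicates, all of cells labelled wild type and harvested after 15 hr. Cells received vehicle (DMSO) or 3 nM quizartinib (AC220), a FLT3 inhibitor, and were kept either in RPMI or in hBMSC-CM, medium conditioned by the HS-5 human bone marrow stromal cell line and mixed with RPMI. The study is of 1 cell line. Its authors call their replicates biological, while the labels do not say whether these were separate cultures, so p-values measure the spread between these samples.

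A ribosome joins a small subunit, which reads the mRNA, to a large subunit, which forms the peptide bonds, and each core protein is needed for a complete subunit. Most mRNAs of these proteins begin with a cytosine followed by an unbroken run of pyrimidines, the 5′ terminal oligopyrimidine (TOP) tract, through which mTORC1 and the RNA-binding protein LARP1 govern their translation and stability. mTORC1 lies downstream of activated FLT3. The paralogs are separate genes that encode a variant of 1 core protein, and several are known mainly from particular tissues, such as RPL3L from muscle and RPL10L and RPL39L from testis.

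The windows at the annotated RNA start show what most core genes share and most paralogs lack. Each runs from 12 bases before the start to 16 bases from it on, on the transcribed strand, as RefSeq gives the start on GRCh38.p14, and capitals mark a tract, defined as C at the start followed by at least 4 more C or T. The first windows are a pair of partner and paralog that both hold a tract, the next are 2 partners with a tract, each beside its paralog without one, then comes the paralog RPL7L1, and the last are core genes that the results below single out.
RPL22 (chr1:6199580-6199607, minus strand): ttcgctcacctcCCTTTCTaactccgct
RPL22L1 (chr3:170870180-170870207, minus strand): ggccgtagcttcCTCTCTgctctcgcgg
RPS27 (chr1:153990750-153990777, plus strand): tccgctttcgctCCTTTCCggcggtgac
RPS27L (chr15:63157462-63157489, minus strand): ttgatgccgagcgcagatcgcttgcagc
RPL36A (chrX:101390999-101391026, plus strand): gcctcgcggtttCTTTCTTTCCgcgccg
RPL36AL (chr14:49620611-49620638, minus strand): tttcttccctttcctgttaggcgagagc
RPL7L1 (chr6:42879604-42879631, plus strand): aagtgcggcgccgtagctaggagcggac
RPL35 (chr9:124861942-124861969, minus strand): cccgcctacttcCTCTTTCCCTCggagc
RPS26 (chr12:56041906-56041933, plus strand): acacataacctcgattttcttccgccat
Of the 62 core genes with a start in the RefSeq table, 46 (74.2%) had a tract at 1 of their starts or more. Of the 6 paralogs with a start, 1 (16.7%) had a tract, and this was RPL22L1. Among all 27305 genes of the table the share was 5.14%. A match is a description of these letters, and no match says only that the tract is not at the annotated start.

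Library totals ran from 19966546 to 31546104 counts. All 77 core genes and 6 of the 8 paralogs passed the filter on low counts (a mean of at least 1 count and of at least 1 CPM, the count divided by the library total and given per 1e+06 counts), among 12998 genes tested. RPL10L was listed at 0 in every library, and RPL3L had between 0 and 6 counts, so neither was tested. Levels are given in TMM-scaled CPM (CPM after trimmed-mean scaling of the library sizes), fold changes as log2 values with their standard error (SE), and a gene is said to have risen or fallen where edgeR's quasi-likelihood test gave a Benjamini-Hochberg adjusted p under 0.05 over all tested genes. All values are relative to the rest of the library, so fewer cells and less RNA per cell cannot be told apart, and a common change in all mRNA would not be seen. Of 10 myeloid markers 9 were tested, with FLT3 at 106 to 482 CPM and LYZ at 253 to 1090 CPM, while MPO stayed at 2.70 to 5.57 CPM and CD68 at 0 to 0.20 CPM. Of 10 marrow stromal markers 2 were tested, the sum of the list ran from 2.6 to 13 CPM, and COL3A1, THY1, DCN, LUM and CCN2 were at 0 in all libraries. The stromal sum was highest with quizartinib in RPMI, at 10.9 to 13 CPM, against 2.6 to 3.14 CPM in both vehicle groups, and its part in the results was not tested.

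Together the core genes took a larger share of the counts with quizartinib than with vehicle. In RPMI the share was 8.07%, 7.93% and 7.87% in the vehicle libraries and 9.49%, 9.57% and 9.87% in the quizartinib libraries, with means of 7.96% ± 0.105 and 9.65% ± 0.200 (SD, n = 3). In hBMSC-CM it was 7.75%, 8.002% and 8.30% with vehicle and 9.36%, 8.85% and 8.91% with quizartinib (8.02% ± 0.275 and 9.04% ± 0.276). The drug groups lay above the vehicle groups in both media without overlap, and the quizartinib libraries in hBMSC-CM lay below those in RPMI. An exact permutation test of 3 against 3 cannot go below p = 0.10, and no test was made of these sums. With scaling by library size only, the median log2 fold change with quizartinib over all tested genes was 0.11 in both media. The core medians were then 0.28 in RPMI and 0.16 in hBMSC-CM. A typical tested gene thus also took a larger share with the drug. Both subunits moved alike, since small-subunit counts stood to large-subunit counts as 0.640, 0.641, 0.648 and 0.647 to 1 in vehicle and quizartinib in RPMI and vehicle and quizartinib in hBMSC-CM. The 8 paralogs took 0.0811% ± 0.00254 with vehicle in RPMI, 0.0559% ± 0.00118 with quizartinib in RPMI, 0.0873% ± 0.00346 with vehicle in hBMSC-CM and 0.0805% ± 0.00294 with quizartinib in hBMSC-CM, so that their share was lowest where that of the core genes was highest. Most of these counts were of RPL7L1 and RPL36AL. RPS27L rose with quizartinib in both media, so the sum does not describe each paralog. Rows of ribosomal protein pseudogenes, whose sequences are close to those of the members, took 0.214%, 0.262%, 0.222% and 0.272% in the same order, and whether reads were split between genes and pseudogenes is not given in the sources used here.

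**Figure D1:**
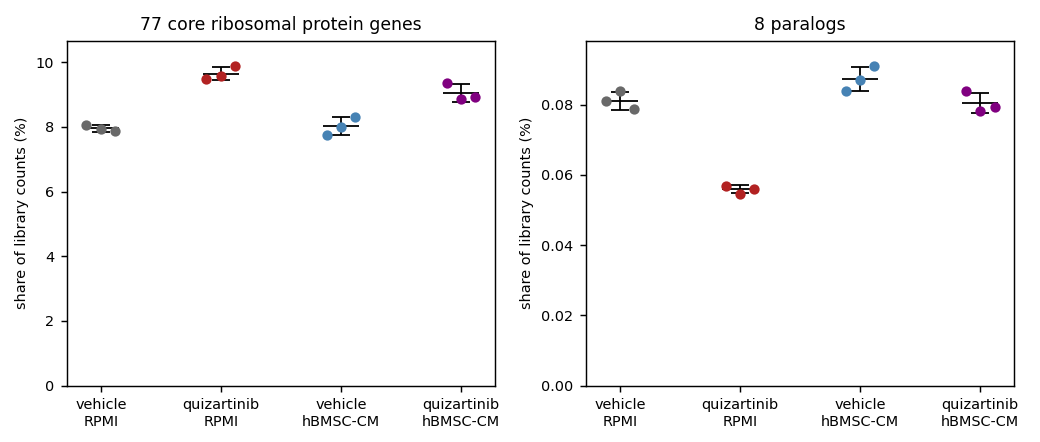
Share of each library's counts (%, y axis) on the 77 core ribosomal protein genes (left) and the 8 paralogs (right) in the 4 groups, with 1 point per library and the mean and SD in black. The core share was 9.65% with quizartinib in RPMI against 7.96% with vehicle, and the paralog share 0.0559% against 0.0811%.

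To ask how FLT3 inhibition bears on these mRNAs without stromal factors, quizartinib was compared with vehicle in RPMI. Of the 77 core genes 53 rose and 6 fell, where over all tested genes 40.1% rose and 39.2% fell (79.3% together). The rises were small: the median log2 fold change of the core genes was 0.19, with quartiles at 0.11 and 0.25, against a median of 0.02 over all genes. In 53 core genes every quizartinib library lay above every vehicle library and in 6 every one lay below, where this held for 41.0% and 40.1% of all genes. Large-subunit genes (32 rose and 3 fell of 46, median 0.19) and small-subunit genes (21 rose and 3 fell of 31, median 0.18) had close medians. Under other scalings of the libraries the number of core genes that rose went from 51 with DESeq2 size factors to 67 with upper-quartile factors or with library size only, and the core median from 0.19 to 0.29. Without the filter on low counts 33 rose and the median was 0.09. Upper-quartile factors moved the median of all genes by 0.10, and relative to that median the core genes stood 0.17 higher with these factors and with TMM alike.

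**Figure D2:**
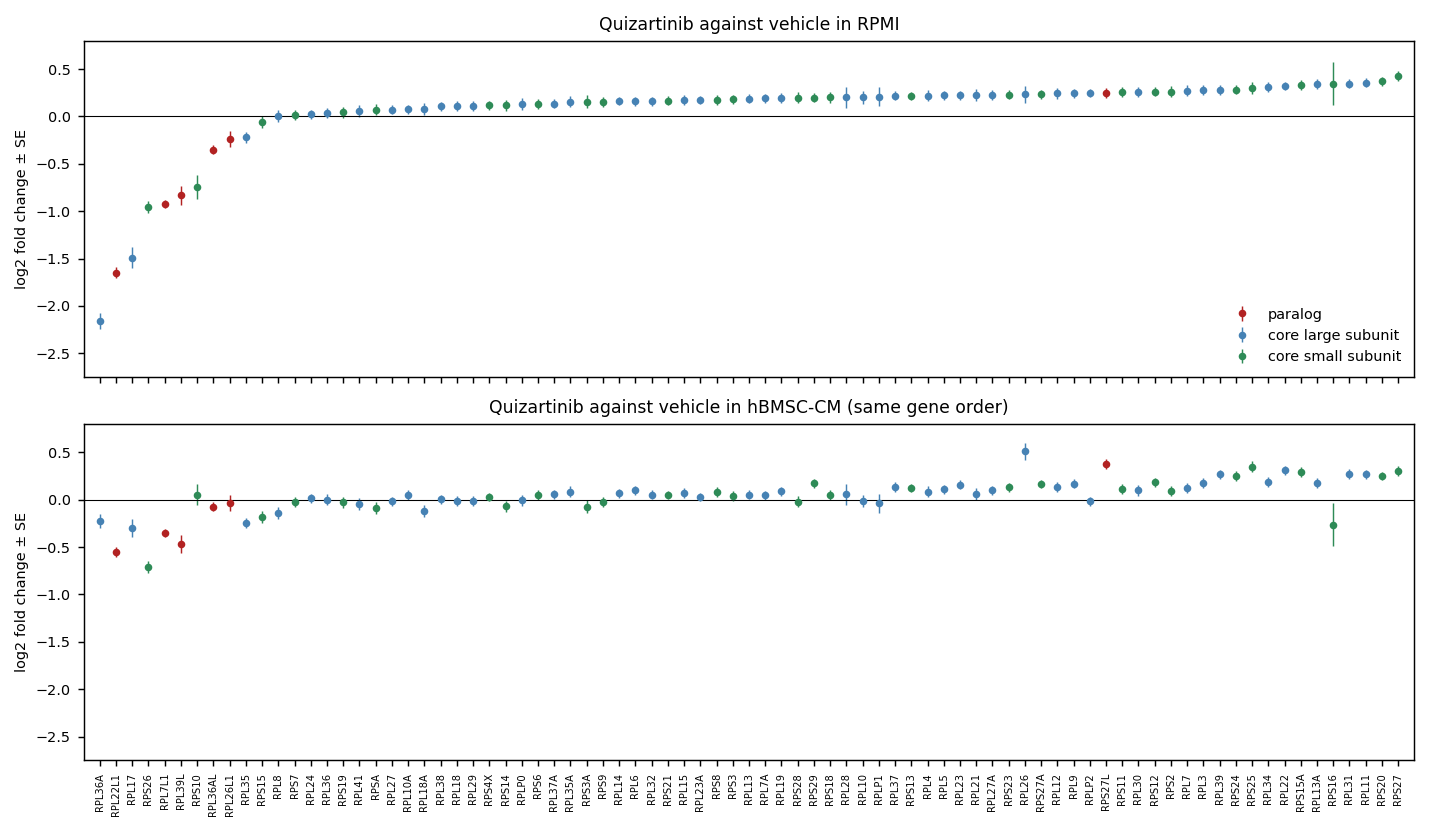
Log2 fold change (y axis, with SE) of 81 of the 83 tested members with quizartinib against vehicle in RPMI (top) and in hBMSC-CM (bottom), ordered in both panels by the change in RPMI and coloured by subunit or paralog. Most core genes lie between 0 and 0.43 in RPMI, and 5 of the 6 paralogs lie below 0.

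RPS27, a zinc-finger protein of the small subunit (chr1:153990762-153992155), had the highest fold change of the core genes that rose. Its level was 586, 609 and 568 CPM with vehicle and 783, 751 and 845 CPM with quizartinib in RPMI (log2 fold change 0.43, SE 0.053, adjusted p = 2.00e-07). It rose from 583, 588 and 652 CPM to 781, 725 and 736 CPM in hBMSC-CM as well (0.30, SE 0.053). The groups did not overlap in either medium. RPS20, of the small-subunit head, went from 1164, 1225 and 1150.2 CPM to 1547, 1494 and 1533 CPM in RPMI (0.37, SE 0.045, adjusted p = 1.69e-07).

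RPL5 and RPL11 form, with 5S rRNA, the particle that binds the p53 inhibitor MDM2 when ribosome assembly stalls. RPL11 was measured at 1868, 1919.8 and 1788 CPM with vehicle and at 2338, 2426 and 2372 CPM with quizartinib in RPMI (0.36, SE 0.049, adjusted p = 9.52e-07). RPL5 was measured at 2024, 2009 and 1959 CPM and at 2357, 2309.5 and 2329.8 CPM (0.22, SE 0.047, adjusted p = 0.000200). Both rose, with no overlap between the groups. In hBMSC-CM RPL11 rose by 0.27 (SE 0.049), while RPL5, at 0.11 (SE 0.047, adjusted p = 0.0412), lost its call in 10 of 12 fits that left out 1 library, for example without the first quizartinib library in hBMSC-CM (0.08, adjusted p = 0.151).

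In the acidic stalk RPLP1 and RPLP2 sit on RPLP0 and recruit elongation factors. RPLP2 rose from 624, 606 and 624 CPM to 719, 715 and 767 CPM in RPMI (0.25, SE 0.046, adjusted p = 4.65e-05). RPLP0 was at 2716, 2619 and 2614 CPM with vehicle and at 2812, 2843 and 3046 CPM with quizartinib (0.13, SE 0.061, adjusted p = 0.0575). RPLP1 was at 951, 739.7 and 903 CPM and at 922, 1033 and 1047 CPM (0.21, SE 0.099, adjusted p = 0.0581). The RPLP1 groups overlapped, those of RPLP0 did not, and neither change passed the test. Whether the 3 genes differed from each other was not tested.

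RPS6, the substrate of the S6 kinases, was at 3033, 3078 and 3041 CPM with vehicle and at 3345, 3242 and 3470.1 CPM with quizartinib in RPMI (0.14, SE 0.054, adjusted p = 0.0256), a call that was lost in 3 of 12 fits without 1 library, as without the third quizartinib library in RPMI (0.12, adjusted p = 0.0812), and without the filter on low counts (0.03, adjusted p = 0.545). RPS14, lost in 5q− myelodysplasia, had a log2 fold change of 0.12 (SE 0.058, adjusted p = 0.0663). RPS19, the gene most often mutated in Diamond-Blackfan anaemia, and RPSA, which also serves as a laminin receptor, gave 0.04 (SE 0.057, adjusted p = 0.496) and 0.07 (SE 0.060, adjusted p = 0.276). The libraries of RPS19 and RPSA overlapped between the groups.

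RPS26 and RPL35 went the other way. RPS26 (chr12:56041351-56044697), which contacts mRNA at the exit channel, fell in RPMI from 339, 327 and 325 CPM to 162, 178 and 172 CPM (−0.95, SE 0.064, adjusted p = 1.30e-11). In hBMSC-CM it fell from 352, 325 and 359 CPM to 239, 203 and 189 CPM (−0.71, SE 0.063, adjusted p = 3.64e-09). All quizartinib libraries lay far below all vehicle libraries in both media. RPL35 (chr9:124857880-124861981), at the peptide exit, fell from 904, 939.8 and 909 CPM to 773, 762 and 833 CPM in RPMI (−0.22, SE 0.057, adjusted p = 0.00150). It fell in hBMSC-CM too, by 0.25 on the log2 scale (SE 0.057, adjusted p = 0.000702). RPL35 has a pyrimidine tract at its start and RPS26 does not, as the windows above show. RPS26 has many processed pseudogenes in the genome, and its level could hold or miss reads of these.

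Among the other core genes that fell in RPMI, RPL36A, RPL17 and RPS10 had values that are uncertain. In GENCODE v44 their canonical transcripts share bases on the same strand with a read-through or neighbouring gene: 96.9% for RPL17, 84.0% for RPS10 and 43.8% for RPL36A. Their mean levels were 27.9 to 39.4 CPM per kb of coding length, against 401 to 4607 CPM per kb for the 72 core genes that share under 40% of their bases. RPL26, with 65.3% shared, stood at 490.1 CPM per kb. The read-through rows for RPL17, RPL36A and RPS10 were at 0 in every library. Reads were counted with a different annotation, an Ensembl release, and overlaps in that release were not examined. RPL36A went from 17.6, 17.2 and 18.8 CPM to 3.76, 3.86 and 4.40 CPM in RPMI (−2.16, SE 0.086, adjusted p = 1.66e-15). RPL17 gave −1.49 (SE 0.11) and RPS10 −0.74 (SE 0.13). All 3 fell without overlap, from counts that may cover only part of each gene's reads. Without the 5 genes with over 40% shared, 52 of 72 core genes rose and 2 fell, with a median of 0.20.

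**Figure D3:**
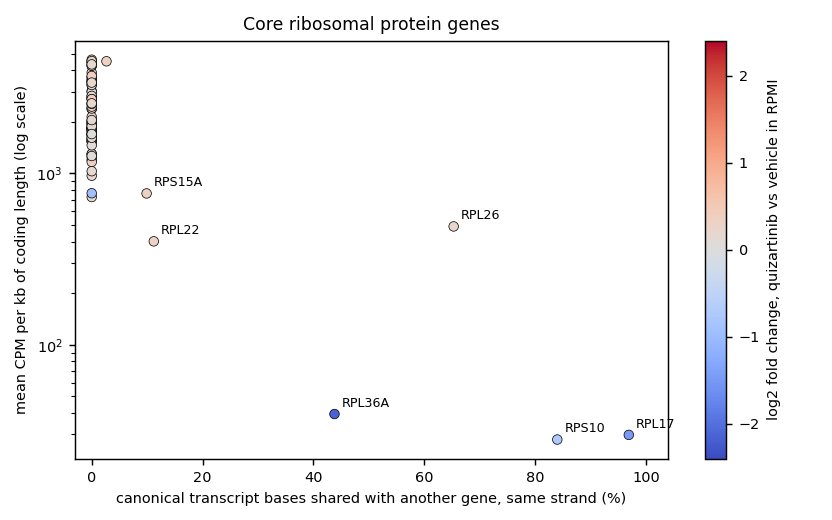
Mean level of 75 core genes over all libraries (y axis, CPM per kb of coding length, log scale) against the share of the canonical transcript's bases that another gene of the same strand also holds (x axis, %), coloured by the log2 fold change with quizartinib in RPMI. RPL36A, RPL17 and RPS10 lie between 27.9 and 39.4 CPM per kb, and RPL26 at 490.1 CPM per kb.

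RPS16 had the largest spread of all core genes within a group. Its level was 565, 283 and 524 CPM with vehicle in RPMI, 538, 603 and 606 CPM with quizartinib in RPMI, 548, 685 and 407 CPM with vehicle in hBMSC-CM and 271, 535 and 564 CPM with quizartinib in hBMSC-CM. One library in each of 3 groups was low, the second vehicle library in RPMI, the third vehicle library in hBMSC-CM and the first quizartinib library in hBMSC-CM. RPLP1 was lowest in its group in the same 3 libraries (739.7, 843 and 729 CPM), and so was RPL28 (526, 450.2 and 586 CPM). RPS16 passed the test in none of the comparisons, with a log2 fold change of 0.35 (SE 0.22, adjusted p = 0.157) for quizartinib in RPMI, and its coefficient of variation reached 35.3% within a group.

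With quizartinib in RPMI 5 of the 6 tested paralogs fell and RPS27L rose, where 39.2% of all genes fell and 40.1% rose, and the paralogs had a median log2 fold change of −0.59. Of their partners RPL22, RPL7, RPL39, RPL26 and RPS27 rose, and RPL36A, whose values are uncertain, fell.

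RPL22L1 (chr3:170864875-170870208) encodes a variant of RPL22, an RNA-binding protein of the large subunit that holds down the RPL22L1 message in known models. RPL22L1 was at 45.6, 46.6 and 45.0 CPM with vehicle and at 14.2, 14.7 and 14.7 CPM with the drug in RPMI (−1.65, SE 0.058, adjusted p = 2.42e-16). In hBMSC-CM it was at 48.2, 53.5 and 52.0 CPM with vehicle and at 36.2, 34.1 and 34.4 CPM with quizartinib (−0.55, SE 0.053, adjusted p = 1.22e-08). It thus fell in both media with no overlap, and less in hBMSC-CM. RPL22 (chr1:6185020-6209389) rose in RPMI from 139.5, 140.2 and 140.0 CPM to 175, 177 and 174 CPM (0.33, SE 0.044) and in hBMSC-CM from 127, 144 and 133 CPM to 171, 165 and 164 CPM (0.31, SE 0.044). Per library, the level of RPL22L1 as a percent of that of RPL22 (not corrected for length) averaged 32.7% ± 0.555 with vehicle in RPMI, 8.31% ± 0.182 with quizartinib in RPMI, 38.1% ± 0.892 with vehicle in hBMSC-CM and 20.9% ± 0.308 with quizartinib in hBMSC-CM (SD, n = 3).

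RPL7L1 (chr6:42879616-42889925), whose product acts in ribosome assembly in the nucleolus, was the most abundant paralog after RPL36AL per kb of coding length, at 534 against 739.6 CPM per kb. It fell in RPMI from 465, 474 and 445 CPM to 246, 239.7 and 243 CPM (−0.92, SE 0.045, adjusted p = 6.25e-14). In hBMSC-CM it fell from 505, 523 and 537 CPM to 434, 392 and 401 CPM (−0.35, SE 0.045, adjusted p = 6.79e-07). RPL7 rose in RPMI from 1273, 1322 and 1266 CPM to 1561, 1552 and 1552 CPM (0.27, SE 0.055), and in hBMSC-CM its groups overlapped (0.12, SE 0.055, adjusted p = 0.0515). RPL7L1 averaged 35.8% of RPL7 in RPMI with vehicle and 15.6% there with quizartinib, against 41.0% and 29.6% in hBMSC-CM.

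RPL39L was low, and it fell from 9.54, 8.96 and 9.04 CPM to 5.005, 5.28 and 5.18 CPM in RPMI (−0.83, SE 0.098, adjusted p = 1.09e-07) and from 9.30, 9.06 and 7.64 CPM to 6.59, 6.01 and 6.23 CPM in hBMSC-CM (−0.47, SE 0.097, adjusted p = 0.000252). Its partner RPL39, which lines the peptide exit tunnel, rose by 0.28 (SE 0.050) and 0.27 (SE 0.050). RPL36AL (chr14:49618530-49620626) fell in RPMI from 244, 243 and 232 CPM to 192, 179.6 and 192 CPM (−0.35, SE 0.049, adjusted p = 1.16e-06), and in hBMSC-CM its groups overlapped, at 248, 262 and 279 CPM against 264, 243 and 244 CPM (−0.07, SE 0.048, adjusted p = 0.197). RPL26L1 went from 12.7, 12.4 and 13.3 CPM to 10.1, 10.6 and 11.9 CPM in RPMI (−0.24, SE 0.084, adjusted p = 0.0139). That call was lost in 3 of 12 fits without 1 library, as without the first quizartinib library in RPMI (−0.18, adjusted p = 0.0799), and with library size only (−0.15, adjusted p = 0.103). RPL26, its partner with shared exons, rose in RPMI by 0.23 (SE 0.088, adjusted p = 0.0203) with overlapping libraries, and lost that call without the third vehicle library in RPMI (0.17, adjusted p = 0.102) or the second quizartinib library in RPMI (0.20, adjusted p = 0.0774).

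RPS27L (chr15:63125872-63158021), a known p53 target, was the paralog that rose. It was at 63.8, 73.0 and 64.4 CPM with vehicle and at 80.4, 79.8 and 79.4 CPM with quizartinib in RPMI (0.25, SE 0.053, adjusted p = 0.000197), and at 50.7, 52.3 and 56.5 CPM and 70.1, 66.2 and 70.2 CPM in hBMSC-CM (0.38, SE 0.055, adjusted p = 4.21e-06). In each medium all quizartinib libraries lay above all vehicle libraries. As RPS27 rose too, RPS27L was at 11.4% and 10.1% of RPS27 in RPMI and 8.75% and 9.22% in hBMSC-CM.

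**Figure D4:**
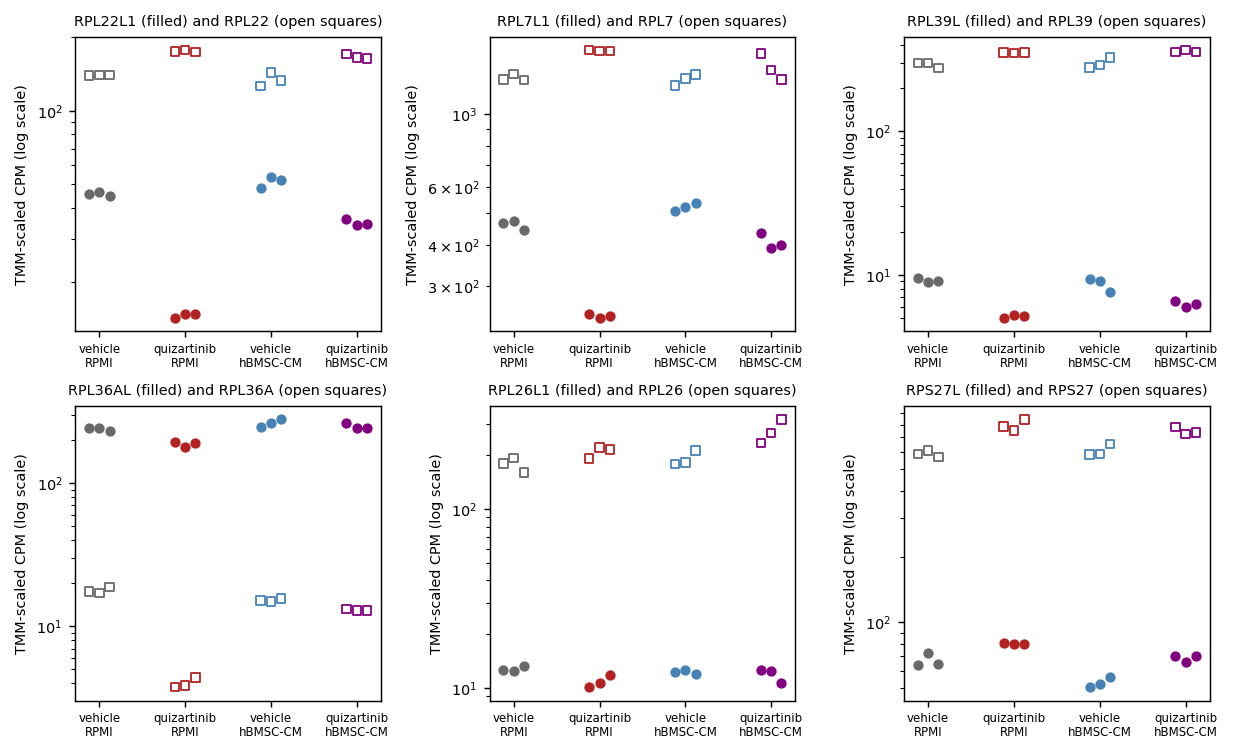
Levels of the 6 tested paralogs (filled circles) and their core partners (open squares) in each library (y axis, TMM-scaled CPM, log scale) in the 4 groups, 3 libraries each. RPL22L1 falls from about 45.7 to 14.6 CPM with quizartinib in RPMI while RPL22 goes from 139.9 to 175 CPM, and RPL36A, whose values are uncertain, falls from 17.8 to 4.01 CPM.

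The same drug comparison in hBMSC-CM asks how far the response holds with stromal factors present. Here 23 of 77 core genes rose and 7 fell, against 33.4% and 33.7% of all genes, with a core median of 0.05 and an all-gene median of 0.01. In 20 core genes all quizartinib libraries lay above and in 6 all lay below, where this held for 34.0% and 34.4% of all genes. With library size only 49 core genes rose and 3 fell, but that scaling moved the median of all genes by 0.10. RPL26, whose exons are shared, was highest, at 179, 183 and 213 CPM with vehicle and 235, 267 and 318 CPM with quizartinib (0.51, SE 0.088, adjusted p = 3.03e-05). RPS25, needed for some internal ribosome entry sites, rose from 811, 874 and 926 CPM to 1034, 1071 and 1223 CPM (0.35, SE 0.060, adjusted p = 3.01e-05). Beside RPS26 and RPL35, the genes that fell here included RPL17 (−0.30), RPL36A (−0.22) and RPS15 (−0.18), the last named after its value was seen. Without the first quizartinib library in hBMSC-CM 11 core genes fell, and RPL17 was then not called (−0.22, adjusted p = 0.0652). Neither RPL36A (−0.12, adjusted p = 0.150) nor RPL17 (−0.19, adjusted p = 0.0907) was called with library size only, nor with upper-quartile factors (−0.14, adjusted p = 0.0952, and −0.22, adjusted p = 0.0545). Nor were they without the 3 libraries lowest in RPS16 (−0.22, adjusted p = 0.0508, and −0.16, adjusted p = 0.203). Of the paralogs RPS27L rose, and RPL22L1, RPL7L1 and RPL39L fell.

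With quizartinib in both arms, hBMSC-CM was compared with RPMI; each of these arms also enters 1 of the drug comparisons above, so that the values share libraries. Of the core genes 6 were higher and 21 lower in hBMSC-CM, against 35.5% and 34.3% of all genes (69.8% together), and the core median was −0.07, though it was 0.00 (12 genes higher and 7 lower) without the filter on low counts. In 7 core genes all hBMSC-CM libraries lay above and in 16 all lay below, against 36.3% and 35.2% of all genes. The count of lower core genes depended on single libraries: it was 4 without the second and 7 without the third quizartinib library in hBMSC-CM, and 9 without the third in RPMI. It was 38 without the 3 libraries low in RPS16. RPS2, at the mRNA entry site, was at 4137, 4356 and 4437 CPM in RPMI and at 3851, 3482 and 3562 CPM in hBMSC-CM (−0.25, SE 0.055, adjusted p = 0.000463). RPSA was at 1163, 1212 and 1233 CPM and at 1161, 962 and 967 CPM (−0.22, SE 0.060, adjusted p = 0.00258). RPL10, among the last proteins to join the large subunit, was at 1317, 1432 and 1400.2 CPM and at 1339, 1096 and 1151 CPM with overlap (−0.21, SE 0.066, adjusted p = 0.00783), and was not called without the second hBMSC-CM library (−0.14, adjusted p = 0.0770).

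Of the 6 core genes higher in hBMSC-CM with quizartinib, 5 had over 40% of their bases shared, among them RPL36A (1.71), RPL17 (1.16), RPS10 (1.02) and RPL26 (0.38). The other was RPS26, at 162, 178 and 172 CPM in RPMI and 239, 203 and 189 CPM in hBMSC-CM (0.30, SE 0.064, adjusted p = 0.000284). Of the 6 paralogs 4 were higher, against 35.5% of all genes: RPL22L1 (1.26, SE 0.060), RPL7L1 (0.75, SE 0.045), RPL36AL (0.41, SE 0.049) and RPL39L (0.29, SE 0.10, adjusted p = 0.0194). RPL39L was not called without the first quizartinib library in RPMI (0.26, adjusted p = 0.0621) or the first in hBMSC-CM (0.25, adjusted p = 0.0737). RPS27L was lower (−0.21, SE 0.053). RPL26L1 gave 0.14 (SE 0.086, adjusted p = 0.145).

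The media were also compared with vehicle in both arms. None of the core genes was higher and 1, RPL36A, was lower in hBMSC-CM by edgeR's test, where 16.6% of all genes were higher and 15.5% lower. At an unadjusted p under 0.05 there were 4 higher and 1 lower, DESeq2 called 2 higher and limma-voom 1. The core median was 0.04. In 7 core genes all hBMSC-CM libraries lay above and in 1 all lay below, against 22.4% and 22.3% of all genes. RPL36A, with its shared exons, was at 17.6, 17.2 and 18.8 CPM in RPMI and 15.1, 14.9 and 15.7 CPM in hBMSC-CM (−0.23, SE 0.070, adjusted p = 0.0173), a call lost in 3 of 12 fits without 1 library, as without the third RPMI vehicle library (−0.19, adjusted p = 0.0925). Of the paralogs, RPL7L1 was higher (0.18, SE 0.045, adjusted p = 0.00436) and RPS27L lower (−0.34, SE 0.055, adjusted p = 8.47e-05). RPL22L1 (0.16, SE 0.052, adjusted p = 0.0215) and RPL36AL (0.13, SE 0.048, adjusted p = 0.0399) were higher too, but their calls were lost in 3 and 5 of the 12 fits without 1 library. Without the third vehicle library in hBMSC-CM they gave 0.15 (adjusted p = 0.0573) and 0.09 (adjusted p = 0.175).

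An interaction term tested whether the drug response differed between the 2 media, positive where the response in hBMSC-CM was the higher. It passed for 5 core genes upward and 3 downward, against 26.1% and 19.2% of all genes (45.2% in either direction), and the core median was −0.10. Without the 5 genes with over 40% shared, 1 core gene passed upward. This was RPS26 (0.24), whose call was lost in 6 of 12 fits without 1 library. Among the 3 that passed downward with TMM were RPLP2 (−0.26, SE 0.065, adjusted p = 0.00219) and RPS28 (−0.22, SE 0.081, adjusted p = 0.0346). The RPS28 call was lost in 6 of 12 fits without 1 library. Upper-quartile factors gave 4 core genes upward and 10 downward. RPLP2 was at 624, 606 and 624 CPM with vehicle and 719, 715 and 767 CPM with quizartinib in RPMI, but at 641, 694 and 660.1 CPM and 626, 671 and 675 CPM in hBMSC-CM, where the groups overlapped. The number downward was 22 without the first quizartinib library in hBMSC-CM, 17 without the first in RPMI, 7 without the first vehicle library of either medium, and 6 without the third vehicle library in hBMSC-CM. Of the 6 paralogs 4 passed upward, RPL22L1 (1.102, SE 0.079, adjusted p = 3.33e-10), RPL7L1 (0.57, SE 0.064, adjusted p = 2.44e-07), RPL36AL (0.28, SE 0.068, adjusted p = 0.00228) and RPL39L (0.36, SE 0.14, adjusted p = 0.0372). RPL39L lost this call in 7 of 12 fits without 1 library, for example without the third vehicle library in hBMSC-CM (0.29, adjusted p = 0.0941).

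Of 46 core genes with a tract 32 rose and 3 fell with quizartinib in RPMI (median 0.20), and of 16 with a start but no tract 10 rose and 2 fell (median 0.16), beside 40.1% and 39.2% of all genes. The difference between them was not tested. Outside the members, 649 tested genes with a tract had a median of 0.06, with 281 higher and 223 lower, and 8282 without one had −0.02, with 3218 higher and 3515 lower.

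Neighbouring parts of the pathway were described by fixed lists. Among ribosome components outside the RPL and RPS symbols, RACK1 rose (0.18, SE 0.051), while FAU, which encodes RPS30, gave −0.05 (SE 0.055, adjusted p = 0.396). Of 24 other mRNAs known for a TOP tract 23 were tested, EEF1G being listed at 0, and 12 rose and 4 fell with quizartinib in RPMI (40.1% and 39.2% of all genes), with a median of 0.14. The elongation factor EEF2 (0.46, SE 0.052) and the initiation factors EIF4B (0.49, SE 0.048) and EIF3H (0.46, SE 0.044) rose, and the non-coding GAS5 (−0.33, SE 0.049) and the importin IPO7 (−0.75, SE 0.041) fell. With quizartinib in both arms 11 of these were lower and 3 higher in hBMSC-CM (median −0.12), beside 34.3% and 35.5% of all genes.

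Of the listed chaperones and escorts, most of which carry or load ribosomal proteins, 14 were tested, 4 also on the TOP list. With quizartinib in RPMI 12 of the 14 fell and 1 rose (39.2% and 40.1% of all genes), with a median of −0.81. RRS1, which brings the 5S particle to the pre-ribosome with RPF2, was at 47.8, 42.5 and 48.0 CPM with vehicle and at 6.56, 7.54 and 7.86 CPM with quizartinib (−2.66, SE 0.085, adjusted p = 4.15e-17). RPF2 (−1.85, SE 0.053), the RPL3 chaperone GRWD1 (−1.93, SE 0.054), LTV1 of the small subunit (−1.31, SE 0.074) and HEATR3, which imports the 5S proteins (−1.29, SE 0.057), fell as well. With quizartinib 10 of the 14 stood at a higher level in hBMSC-CM and none at a lower one (0 at an unadjusted p under 0.05 as well), with a median of 0.63, where 35.5% of all genes were higher and 34.3% lower. The interaction passed for 8 upward, against 26.1% of all genes, with RRS1 at 2.03 (SE 0.11). Of 13 kinases and regulators 10 fell with quizartinib in RPMI and none rose (0 at an unadjusted p under 0.05 as well). This stood against 39.2% and 40.1% of all genes, and the median of the list was −0.32. The lowest values were those of the mTORC1 target EIF4EBP1 (−1.999, SE 0.058) and the TOP-binding LARP1 (−1.26, SE 0.079). LARP1 was at 380.2, 369.9 and 388 CPM with vehicle and at 157, 164 and 156 CPM with quizartinib in RPMI, and with quizartinib it was higher in hBMSC-CM (1.04, SE 0.079). Of the 13 regulators 7 were higher and 1 lower in that comparison, with a median of 0.20, against 35.5% and 34.3% of all genes.

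**Figure D5:**
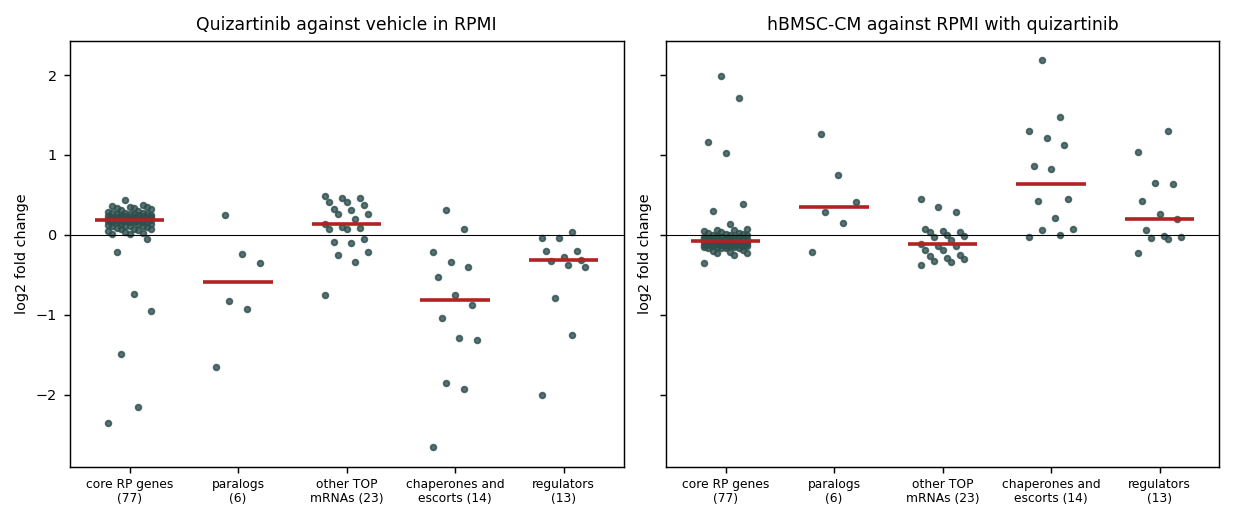
Log2 fold change (y axis) of each gene (points) in 5 lists, with the list median as a bar, for quizartinib against vehicle in RPMI (left) and hBMSC-CM against RPMI with quizartinib (right). The core genes have medians of 0.19 and −0.07 (0.00 on the right without the filter on low counts) with single genes far from them, and the chaperones have medians of −0.81 and 0.63.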

How the data were processed

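The authors sequenced poly-A-selected RNA as read pairs and trimmed these with BBDuk. Reads were aligned to hg38 with Ensembl annotation and counted per gene with STAR (2.6.0a per the submitters' processing notes). The authors deposited a table of raw gene counts with same-name genes summed. Whether counting used strand, and how reads matching several genes were treated, is not given in the sources used here. All 12 columns were matched to samples by name and 0 were left unmapped. From the counts, 12998 genes whose mean count and mean CPM both reached 1 were kept, scaled by TMM, and fitted in 1 model of the 4 groups with edgeR's quasi-likelihood test (edgeR 4.0.16, R 4.3.3, 8 residual degrees of freedom), two-sided, with Benjamini-Hochberg adjustment over all tested genes and a threshold of 0.05. The study's own test was limma, run here as an alternative (limma 3.58.1) beside DESeq2 1.42.0. On simulated counts for quizartinib against vehicle in RPMI, with 200 of 12998 genes changed, the test found 89 of 100 genes changed by 0.5 and 100 of 100 changed by 1 on the log2 scale, with 11 false calls. No smaller change was simulated, while the core genes had a median of 0.19 in this comparison. In the data 79.3% of genes were called, far more than were changed in the simulation. The simulation thus cannot tell how the test does for changes as small and as many as these.

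Members and lists were chosen with earlier results of these data known. Named were every paralog and its partner, the stalk, RPL5, RPL11, RPS6, RPS14, RPS19, RPSA, and in each comparison the 3 called core genes with the highest and the 3 with the lowest fold change at a mean of at least 10 CPM. RPS26, RPL35, RPS15, RPS16 and RPL28 were outside that rule in some or all comparisons and named after their values were seen. A few genes are counted in the totals but not reported here by name. Gene positions and shared bases are from GENCODE v44, not from the Ensembl release used for counting, and start sites are from RefSeq. Totals of 19966546 to 31546104 counts gave a floor of 0.0951 to 0.150 CPM for 3 counts, which covers counting error only.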

Additional observations from a re-analysis of the deposited data

Results flagged for a closer look

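The response to quizartinib differed between the media for 12 members, of which 10 are given here, by the interaction term of edgeR's fit (log2, response in hBMSC-CM minus response in RPMI). The values were 1.94 for RPL36A, 1.19 for RPL17 and 0.79 for RPS10, whose exons are shared with another gene and whose levels are uncertain. They were 1.1 for RPL22L1, 0.57 for RPL7L1, 0.36 for RPL39L and 0.28 for RPL36AL among the paralogs. For RPS26 the difference was 0.24, a call lost in 6 of 12 fits without 1 library, as without the first quizartinib library in hBMSC-CM (0.14, adjusted p = 0.118). It was −0.22 for RPS28, lost in 6 of 12 such fits, as without the second RPMI vehicle library (−0.17, adjusted p = 0.110) and −0.26 for RPLP2. Groups of 3 are too small for the check on single outlying samples.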

How the results depend on the processing

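Fixed alternatives were other scalings, tests, filters, the groups of a comparison alone, a replicate block and leaving out each library. Leaving out the 5 shared-exon genes or the 3 libraries low in RPS16 was chosen after seeing the data. No named call changed sign in 1868 alternative values of 78 results, 108 of which lost the call, in 23 results. The causes of the following changes were not tested. For quizartinib in RPMI the core median was 0.2793 with library size only, 0.2923 with upper-quartile factors, 0.0889 without the filter and 0.2574 with a stricter filter, a mean CPM of 10 or more, core genes higher numbered 33 without the filter, and core genes lower 2 without the shared-exon genes. In hBMSC-CM, library size only, upper-quartile factors and the stricter CPM filter gave medians of 0.1594, 0.1369 and 0.1094 and 49, 46 and 36 core genes higher. The first 2 gave 56 and 53 members called and 3 core genes lower. Core genes lower were 11 without the filter and 4 without the shared-exon genes. For the medium with quizartinib, 49 members were called and 38 core genes were lower with upper-quartile factors and without the 3 libraries. Without the filter 12 were higher, 7 lower and the median 0.0032, and without the shared-exon genes 1 was higher. For the medium with vehicle, members called were 3 with upper-quartile factors, 3 without the 3 libraries and 10 without the filter. Core genes higher were 1 with DESeq2 size factors, 2 with DESeq2's test, 1 with limma-voom, 7 without the filter and 2 with only these groups, and core genes lower were 0 without the filter and 0 without the shared-exon genes. For the interaction DESeq2's test called 19 members and the fit without the 3 libraries 26. Core genes downward were 6 with DESeq2 size factors, 10 with upper-quartile factors, 11 with DESeq2's test, 8 with limma-voom, 5 without the filter, 5 with the stricter CPM filter and 18 without the 3 libraries. Upward there was 1 without the shared-exon genes, and the median without the filter was −0.0331.

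Without 1 library, members called ranged from 57 to 69 for quizartinib in RPMI, 29 to 41 in hBMSC-CM, 16 to 42 for the medium with quizartinib, 2 to 7 with vehicle and 9 to 30 for the interaction. Core genes higher ranged from 45 to 58, 18 to 30, 6 to 7, 0 to 3 and 4 to 6 in the same order, and core genes lower were 6 throughout, then 5 to 11, 4 to 31, 0 to 1 and 2 to 22. A group then holding 2 libraries shares the spread of the whole fit. Replicate numbers did not pair the libraries: over 18 pairs with the same number the correlation of deviations ran from −0.227 to 0.0979, and 4 correlated best with their own number. With the replicate block 62, 33, 29, 4 and 12 members were called, and RPL5 in hBMSC-CM (adjusted p = 0.0632) and RPL36AL for the medium with vehicle (adjusted p = 0.0552) were not called.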
